A study of Mus musculus with 6 samples.

Results

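Hnf4a, the nuclear receptor that drives proximal tubule differentiation, and 8 genes of the brush border and its endocytic surface were followed in embryonic kidneys with and without Fat4. The 9 genes were Hnf4a, Dpp4, Enpep, Ggt1, Anpep, Mme, Acy3, Lrp2 and Pdzk1, found by name among 21553 genes with a value in the table, each with 1 entry. They were picked with the mutant against wildtype values of these libraries in view. Their genotype differences are therefore given as a description with their spread, and no p-value is attached to them.

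The data came from 6 mouse embryos at E13.5, 3 homozygous for a Fat4 mutation (Fat4-/-) and 3 wildtype (Fat4+/+), all on a background the labels give as C57BL6/6 after 6 backcrosses, with no other allele or agent named. The embryos were littermates from 1 pregnant female, and the 2 kidneys of an embryo, freed of most of the ureter, made 1 library. The sources used here do not say which part of Fat4 the mutation removes. Fat4 is a giant cadherin known to act in kidney stroma, and the comparison asks what its loss does to RNA levels in the whole organ.

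The proximal tubule reabsorbs most of what the glomerulus filters. Its apical membrane is folded into a brush border of microvilli, where membrane peptidases trim filtered peptides and a large receptor, megalin, takes up filtered proteins. Hnf4a is known to be needed for nephron cells to become proximal tubule, and it also acts in liver and gut. At E13.5 the first nephrons are forming, so mature tubule is scarce in a whole kidney.

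The deposited unit, cRPKM, is a corrected RPKM, which scales read counts to gene length and to the library's mapped reads, so levels can be compared between genes. Read totals are unknown. Genes above 0 numbered 17578 to 17705 in wildtype and 17485 to 17541 in mutant libraries. Fat4 was at 15.69 to 16.83 cRPKM in wildtype and 7.20 to 7.82 in mutant libraries, which separated the genotypes as labelled. The kidney regulators Pax2, Sall1, Six2, Ret, Foxd1, Hoxd11 and Hoxa11 were present in all 6 libraries, at 12.49 cRPKM or more. The Y-linked gene Ddx3y was at 23.10 to 24.64 cRPKM in the 3 wildtype libraries and mutant embryo 1, and at 0.03 and 0.05 in mutant embryos 2 and 3, so sex was uneven between the genotypes.

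The sequence around the starts of the genes was searched for short patterns. RefSeq windows on GRCm38.p6, 250 bases before to 50 bases after a start, were found for all 9 genes, 16 windows in all. They were searched on both strands for CAAAGTCCA, a sequence known to be favoured by HNF4 proteins, for GTTAAT, for GTTAAT and ATTAAC with 1 base between them, and for 2 copies of AGGTCA with 1 base between them. The core CAAAG, which lies inside CAAAGTCCA, was counted as well. The 3 windows below are shown because they are both windows of Hnf4a, a gene with alternative starts, and the single window with CAAAGTCCA. Matches are in capitals.
Hnf4a, upstream start, chr2:163506607-163506906, + strand: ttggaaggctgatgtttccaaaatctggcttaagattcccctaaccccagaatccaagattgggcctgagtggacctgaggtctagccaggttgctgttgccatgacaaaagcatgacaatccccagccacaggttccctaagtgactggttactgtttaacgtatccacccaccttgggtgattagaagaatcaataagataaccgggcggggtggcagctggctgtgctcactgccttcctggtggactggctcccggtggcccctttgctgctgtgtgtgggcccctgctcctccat
Hnf4a, downstream start, chr2:163546905-163547204, + strand: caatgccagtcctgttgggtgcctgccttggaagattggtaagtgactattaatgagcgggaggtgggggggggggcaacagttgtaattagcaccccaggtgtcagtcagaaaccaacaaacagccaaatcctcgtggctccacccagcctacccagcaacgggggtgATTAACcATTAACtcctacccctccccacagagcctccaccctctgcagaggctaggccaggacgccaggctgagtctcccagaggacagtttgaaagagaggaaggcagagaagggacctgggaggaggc
Pdzk1, upstream start, chr3:96829815-96830114, + strand: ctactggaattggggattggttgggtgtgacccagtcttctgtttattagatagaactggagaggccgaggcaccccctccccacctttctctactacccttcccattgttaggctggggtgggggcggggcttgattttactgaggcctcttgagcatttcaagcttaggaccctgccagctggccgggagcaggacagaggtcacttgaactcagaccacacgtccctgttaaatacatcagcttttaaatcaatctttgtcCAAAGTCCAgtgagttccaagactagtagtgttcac

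The downstream Hnf4a window held 2 copies of ATTAAC, the reverse strand of GTTAAT, beginning 81 and 74 bases before the start with 1 base between them. The upstream Hnf4a window held none of the 4 longer patterns. GTTAAT occurred in 7.10% of all 32851 windows of this length and in 1 of the 16. CAAAGTCCA occurred in 0.475% of all windows and in 1 of the 16, beginning at base 15 after the Pdzk1 start. In this Pdzk1 window and the downstream Hnf4a window, the bases after the start were not found as an unbroken run in a GENCODE transcript. Those in the other window of each gene were found. Neither GTTAAT joined to ATTAAC by 1 base nor the AGGTCA repeat was found in the 16 windows, and they occurred in 0.00913% and 0.0396% of all windows. CAAAG was in 12 of the 16 windows and in 53.9% of all. The windows of Anpep and the 2 downstream windows of Mme were rich in G and C, at 72.3% to 73.0% with 28 to 32 CpG pairs. The windows of Hnf4a, Dpp4, Enpep, Ggt1 and Pdzk1 held 2 to 10 CpG pairs and that of Lrp2 held 20. The Acy3 window held 7 and the most upstream Mme window 4, against a median of 7 over all windows. A match is a run of letters, not a site shown to be bound.

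The 9 genes fell into 2 sets by their values. Hnf4a, Pdzk1, Dpp4, Ggt1, Enpep and Lrp2 were lower in every mutant library than in any wildtype library, with mutant means at 17.8% to 63.5% of wildtype. Anpep, Mme and Acy3 differed little, with mutant means at 94.6%, 93.2% and 115% of wildtype. Taken over all 9, each mutant library lay under each wildtype library for 7 genes (Anpep is the additional one) and over for 1, Acy3. Over all 12315 genes tested, those that averaged 1 cRPKM or more, these shares were 11.0% and 7.23%. In either direction 8 of 9 genes did not overlap, against 18.2% of tested genes, and 8 of 9 log2 fold changes were below 0, against 56.8%. Because the genes were picked on this contrast, nothing is read from their counts. In whole kidneys, fewer cells of a type and less RNA per cell cannot be told apart.

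**Figure D1:**
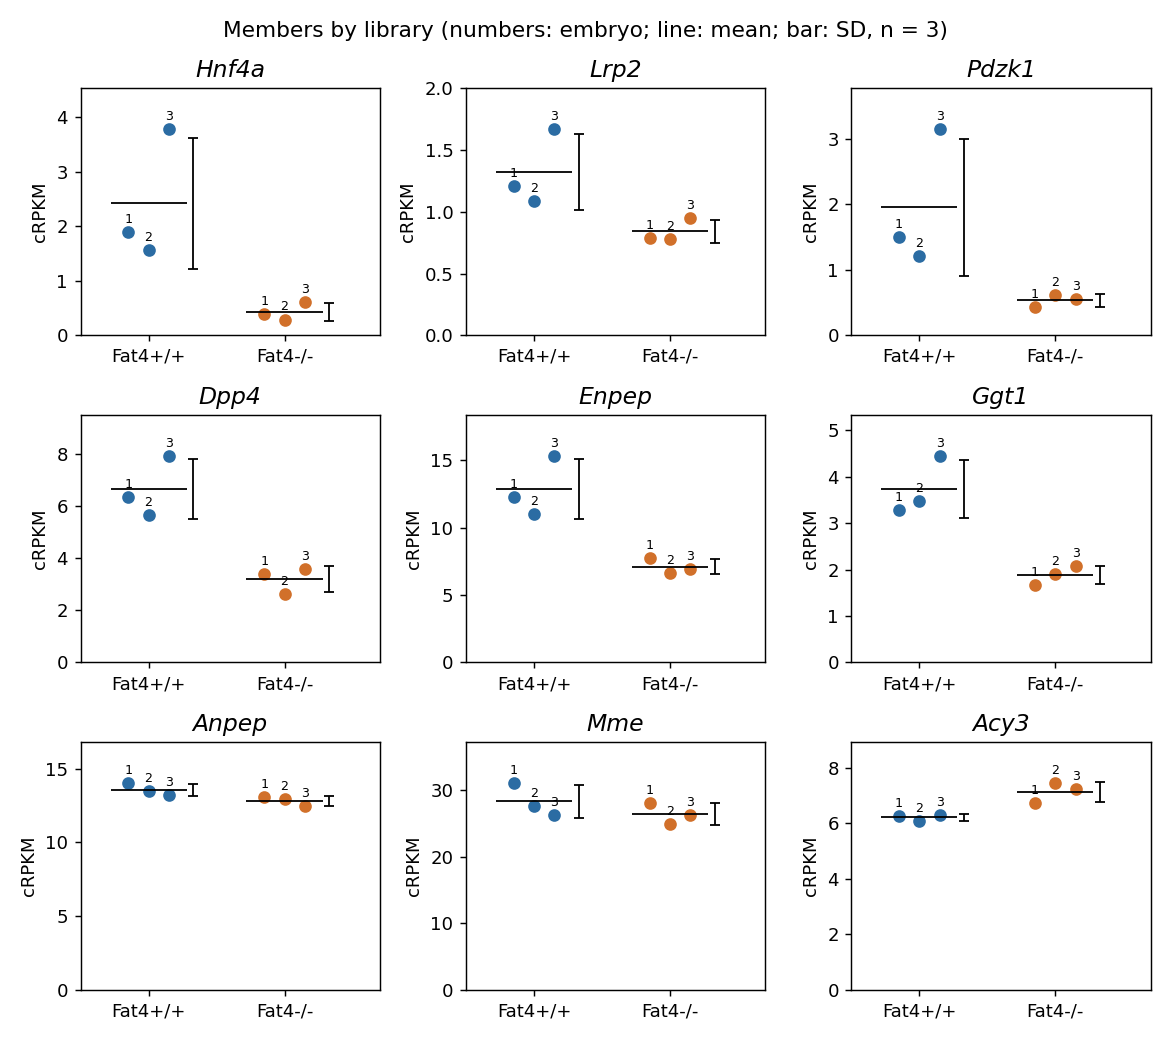
Level of each of the 9 genes in cRPKM (vertical axes, from 0) in the 3 Fat4+/+ and 3 Fat4-/- libraries, with the embryo number at each point, the mean as a line and the SD (n = 3) as a bar. The upper 6 genes are lower in all 3 mutant libraries, with wildtype embryo 3 highest, while mutant means of Anpep, Mme and Acy3 in the bottom row are 93.2% to 115% of wildtype.

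Hnf4a (ENSMUSG00000017950, chromosome 2, 163506808 to 163572910, GRCm38), the transcription factor of the set, was at 1.90, 1.57 and 3.79 cRPKM in wildtype embryos 1, 2 and 3. It was at 0.39, 0.29 and 0.61 in mutant embryos 1, 2 and 3. Wildtype embryo 3 was the highest by far and the groups did not overlap, the highest mutant library being at 38.9% of the lowest wildtype one. The mean went from 2.42 ± 1.20 to 0.430 ± 0.164 cRPKM (SD, n = 3), a log2 fold change of -1.21 (SE 0.210) on the log2(cRPKM + 1) scale, which understates changes of low genes. Without wildtype embryo 3 the mutant mean was 24.8% of wildtype rather than 17.8%.

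Lrp2 (chromosome 2, 69424340 to 69586065, GRCm38), which encodes megalin, was the lowest of the 9 in wildtype kidneys. Wildtype embryos 1, 2 and 3 had 1.21, 1.09 and 1.67 cRPKM, and the mutants 0.79, 0.78 and 0.95. The gap between the groups was narrow, with the highest mutant library at 87.2% of the lowest wildtype one. The mean went from 1.32 ± 0.306 to 0.840 ± 0.0954 cRPKM (SD, n = 3), a log2 fold change of -0.33 (SE 0.0988).

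Pdzk1 (chromosome 3, 96829284 to 96870926, GRCm38) encodes a scaffold whose PDZ domains hold transporters at the apical membrane. Wildtype embryos 1, 2 and 3 had 1.50, 1.21 and 3.15 cRPKM, and the mutants 0.43, 0.62 and 0.55. In wildtype its pattern was close to that of Hnf4a, with wildtype embryo 3 far above the other 5 libraries. Among the mutants the order differed, with embryo 2 highest for Pdzk1 and lowest for Hnf4a. The mean of Pdzk1 went from 1.95 ± 1.05 to 0.533 ± 0.0961 cRPKM (SD, n = 3), a log2 fold change of -0.89 (SE 0.205). The mutant mean was 27.3% of wildtype, or 39.4% without wildtype embryo 3.

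Among the membrane enzymes, Dpp4, Enpep and Ggt1 were lower in mutant kidneys. Dpp4 (chromosome 2, 62330073 to 62412231), a dipeptidyl peptidase of the brush border that is also found on lymphocytes, was at 6.36, 5.66 and 7.92 cRPKM in wildtype embryos 1, 2 and 3. In mutant embryos 1, 2 and 3 it was at 3.39, 2.63 and 3.60. The highest mutant library was at 63.6% of the lowest wildtype one. Wildtype averaged 6.65 ± 1.16 and mutants 3.21 ± 0.510 cRPKM (SD, n = 3), a log2 fold change of -0.86 (SE 0.120).

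Enpep (chromosome 3, 129269175 to 129332720), aminopeptidase A, which cleaves angiotensin peptides and is also known from pericytes and podocytes, was at 12.27, 11.02 and 15.32 cRPKM in wildtype. In mutant embryos 1, 2 and 3 it was at 7.74, 6.67 and 6.95. In cRPKM this was the largest difference of the 9, with a mutant minus wildtype difference of -5.75 cRPKM (12.9 ± 2.21 against 7.12 ± 0.555, SD, n = 3, log2 fold change -0.76, SE 0.105).

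Ggt1 (chromosome 10, 75561604 to 75586200), which encodes the gamma-glutamyltransferase that breaks down glutathione in the lumen, had 3.29, 3.48 and 4.45 cRPKM in wildtype embryos 1, 2 and 3, while the mutants had 1.68, 1.90 and 2.07. The values within each genotype were close and the groups were apart. Wildtype averaged 3.74 ± 0.622 and mutants 1.88 ± 0.196 cRPKM (SD, n = 3), a log2 fold change of -0.71 (SE 0.0967). The deposited value is for the whole gene, so its 4 promoter windows cannot be told apart.

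The other 3 enzymes behaved differently. Anpep (chromosome 7, 79821803 to 79861059), aminopeptidase N, belongs to the same zinc aminopeptidase family as Enpep and is also made by myeloid and stromal cells. Wildtype embryos 1, 2 and 3 had 14.02, 13.46 and 13.20 cRPKM, and the mutants 13.07, 12.95 and 12.45. The highest mutant library was at 99.0% of the lowest wildtype one, so the groups just failed to touch, with a log2 fold change of -0.07 (SE 0.0421).

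Mme (chromosome 3, 63241537 to 63386030), the zinc peptidase neprilysin, is a brush border enzyme that podocytes and stromal cells also make. The highest of the 9 genes, it had 31.03, 27.63 and 26.20 cRPKM in wildtype embryos 1, 2 and 3, while the mutants had 28.06, 24.84 and 26.21. These ranges overlapped, and the means were 28.3 ± 2.48 and 26.4 ± 1.62 cRPKM (SD, n = 3, log2 fold change -0.10, SE 0.0682).

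Acy3 (chromosome 19, 3986570 to 3990007), an aminoacylase that removes acetyl groups from conjugated amino acids, was the single member with a higher mutant mean. Wildtype embryos 1, 2 and 3 had 6.25, 6.06 and 6.30 cRPKM, and the mutants 6.74, 7.44 and 7.22. The groups did not overlap, with averages of 6.20 ± 0.127 and 7.13 ± 0.358 cRPKM (SD, n = 3) and a log2 fold change of 0.17 (SE 0.0488).

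Ordered by mean level in wildtype kidneys, Mme stood alone at the top, with every library above those of the other 8 genes. Anpep and Enpep came next and overlapped, as did Dpp4 and Acy3 after them. Ggt1, Hnf4a, Pdzk1 and Lrp2 followed at under 5 cRPKM, and the wildtype range of Hnf4a overlapped those of the other 3. In mutant kidneys Acy3 reached the level of Enpep (7.13 against 7.12 cRPKM), Dpp4 stood below both, and Hnf4a went from the seventh to the lowest place. Mme and Anpep, which stood highest in both genotypes, were among the 3 genes that differed little.

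Mutant embryo 1, the mutant with Y-linked expression, shared the low values. Its Hnf4a was at 16.1% of the wildtype mean, against 12.0% and 25.2% in mutant embryos 2 and 3. For Pdzk1 the shares in mutant embryos 1, 2 and 3 were 22.0%, 31.7% and 28.2%. Those of Ggt1 were 44.9%, 50.8% and 55.3%. Dpp4, Enpep and Lrp2 in mutant embryo 1 stood at 51.0%, 60.1% and 59.7% of the wildtype mean. In the 4 libraries with Y-linked expression alone, the log2 fold changes were -1.24 for Hnf4a, -0.99 for Pdzk1, -0.79 for Dpp4, -0.81 for Ggt1, -0.65 for Enpep and -0.37 for Lrp2. These rest on a single mutant embryo. Mme, Enpep and Pdzk1 lie on chromosome 3 with Fat4, 24.2, 90.3 and 57.8 Mb from it, and the other 6 genes lie on other chromosomes.

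The 6 lower genes also varied together inside a genotype, which is given as a description, since high values in wildtype embryo 3 enter both this likeness and the genotype difference. After the mean of each genotype was taken off on the log2(cRPKM + 1) scale, Pearson's r over the 6 libraries between Hnf4a and Lrp2, Pdzk1, Dpp4, Enpep and Ggt1 was 0.99, 0.92, 0.89, 0.87 and 0.87. With Anpep, Mme and Acy3 it was -0.63, -0.42 and 0.24, and the median over all 12315 tested genes was -0.02. The 15 pairs among the 6 lower genes ran from 0.57 to 0.99, with a median of 0.87, and the 21 pairs with Anpep, Mme or Acy3 from -0.85 to 0.72. These are descriptions over 6 libraries in which a library adds to every gene, and values of at least 0.87 were reached by 3.95% of tested genes. Much of the likeness came from wildtype embryo 3. Without it, r to Hnf4a stayed at 0.97 for Lrp2 and 0.88 for Dpp4 and was 0.34, 0.34 and 0.22 for Enpep, Ggt1 and Pdzk1.

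**Figure D2:**
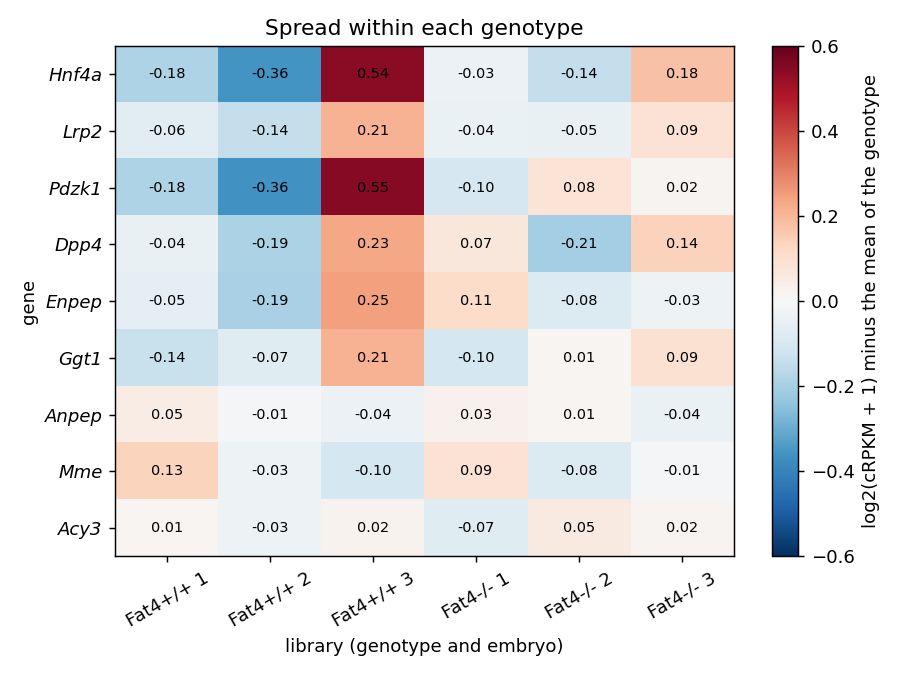
Log2(cRPKM + 1) of each gene (rows) in each library (columns) minus the mean of its genotype, in colour and digits. Wildtype embryo 3 is above its genotype's mean by 0.21 to 0.55 for the upper 6 genes, and within 0.10 of it for Anpep, Mme and Acy3.

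Within the wildtype group embryo 3 had 2.18 times the mean Hnf4a level of embryos 1 and 2, and 2.32 times their Pdzk1. The ratio was 1.45 for Lrp2, 1.32 for Dpp4 and Enpep and 1.31 for Ggt1. For Anpep, Mme and Acy3 it was 0.961, 0.893 and 1.02. On the log2 scale the Hnf4a and Pdzk1 differences of 0.81 and 0.82 were reached by 13 and 12 of the 12315 tested genes, and the 95th percentile was 0.20. Embryos of a litter can differ in age at dissection, and no measure of it was used here.

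The 10 tested genes most like Hnf4a over the 6 libraries, by Pearson's r of log2(cRPKM + 1) and with the genotype difference included, had r of 0.991 to 0.996. They were D630042F21Rik, Prkcz, Plekha5, Atp1b1, Slc35a3, Nedd4l, Cdh16, Adamts16, Has3 and RP23-71J17.1. D630042F21Rik had means of 2.39 ± 0.897 in wildtype and 0.653 ± 0.0862 cRPKM in mutant libraries (SD, n = 3). Atp1b1, a beta subunit of the sodium pump, had 20.1 ± 4.57 and 11.4 ± 0.517 cRPKM (SD, n = 3). Cdh16, a cadherin of kidney tubule epithelium, had 41.6 ± 5.48 and 30.5 ± 1.56 cRPKM (SD, n = 3). No test is given, since likeness to Hnf4a here selects for the genotype difference. The measure ignores size: Plekha5 shared the shape with a log2 fold change of -0.12 (SE 0.0413). With genotype means removed, the 10 most like it were Yap1, Lrp2, Nedd4l, Syde2, Bcl6b, Crb3, Slit1, Dsp, Rftn1 and Col18a1, at r of 0.987 to 0.996. Yap1 itself hardly varied, at 77.1 ± 1.21 and 77.7 ± 0.484 cRPKM (SD, n = 3). Only Nedd4l stood in both lists of 10.

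Other genes of the proximal tubule were read from 6 lists with 110 genes found in the table besides the 9. Of these, 49 reached a mean of 1 cRPKM and were tested, 1 rose, 5 fell and 43 did not pass (limma, adjusted p under 0.05, where 1.43% of all tested genes were called, 0.552% higher and 0.877% lower). The median log2 fold change was -0.04, against -0.01 over all tested genes. In 12 of the 49 every mutant library was under every wildtype library, 24.5% against 11.0% of all tested genes, and in 6 every mutant library was above, against 7.23%. All 6 calls were lost with a Y-linked score as covariate (limma adjusted p = 0.227 for Folr1) or in the 4 Y-expressing libraries alone, where 2 and 4 genes were called in all. Their log2 fold changes with the covariate were -0.56 for Folr1, -0.36 for Pdzk1ip1, -0.41 for Eps8, -0.48 for Car4, -0.27 for Slc39a8 and 0.31 for Espn.

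Of the endocytic partners of megalin, 1 of 8 tested fell. This was Folr1, a folate receptor, with 2.45, 2.16 and 2.50 cRPKM in wildtype embryos 1, 2 and 3 and 1.28, 1.16 and 1.09 in the mutants. Its average was 2.37 ± 0.184 in wildtype and 1.18 ± 0.0961 cRPKM in mutants (SD, n = 3, log2 fold change -0.63, SE 0.0672, limma adjusted p = 0.00766). It still passed when any single library was left out (limma adjusted p 0.0150 to 0.0465). The chloride transporter Clcn5 (log2 fold change -0.13, adjusted p = 0.402) and the phosphatase Ocrl (-0.11, adjusted p = 0.349), both tied to endocytosis, did not pass in limma.

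Of the microvillus scaffold, 2 of 7 tested fell and 1 rose. Pdzk1ip1, a membrane partner of Pdzk1, fell from 5.99 ± 0.394 to 4.29 ± 0.311 cRPKM (SD, n = 3), with a log2 fold change of -0.40 (limma adjusted p = 0.0260). Eps8, which caps and bundles actin in microvilli, fell, averaging 1.86 ± 0.223 in wildtype and 1.16 ± 0.0611 cRPKM in mutants (SD, n = 3, log2 fold change -0.40, limma adjusted p = 0.0382). Espn, another actin bundler, rose, averaging 8.23 ± 0.556 in wildtype and 11.2 ± 0.725 cRPKM in mutants (SD, n = 3, log2 fold change 0.41, limma adjusted p = 0.0233). Leaving out wildtype embryo 1, or a mutant embryo, ended the calls of Pdzk1ip1 and Espn (limma adjusted p up to 0.0894 and 0.0967), and leaving out any library ended that of Eps8 (0.0672 to 0.142).

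Of other brush border enzymes 1 of 13 tested fell, the carbonic anhydrase gene Car4, averaging 11.6 ± 0.949 in wildtype and 8.29 ± 0.263 cRPKM in mutants (SD, n = 3, log2 fold change -0.44, limma adjusted p = 0.0191). Leaving out a mutant embryo ended its call (limma adjusted p up to 0.0724). Naalad2, a dipeptidase gene, was at -0.39 (SE 0.111, limma adjusted p = 0.166) and did not pass. The median of this list was 0.00.

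Of the transporters 1 of 9 tested fell, the metal ion carrier Slc39a8, averaging 4.29 ± 0.197 in wildtype and 3.36 ± 0.120 cRPKM in mutants (SD, n = 3, log2 fold change -0.28, limma adjusted p = 0.0479), a call that ended with any library left out (0.0761 to 0.157). The lactate carrier Slc16a1 (0.16, adjusted p = 0.139) and the water channel Aqp1 (-0.28, adjusted p = 0.247) did not pass in limma. None of the 6 tested metabolic genes passed in limma, and 1 of them, Gldc, had an unadjusted p under 0.05 (log2 fold change 0.17, adjusted p = 0.293). Over all 12315 tested genes, 626 higher and 981 lower had an unadjusted p under 0.05 in limma.

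None of the 6 tested regulators and early proximal genes passed in limma, with 3 lower and 1 higher at an unadjusted p under 0.05. Of all 12315 tested genes, 626 higher and 981 lower reached that level. Cdh6, a cadherin of the early proximal nephron, had 9.06, 7.30 and 10.72 cRPKM in wildtype embryos 1, 2 and 3, while the mutants had 5.69, 4.34 and 6.46 (log2 fold change -0.63, SE 0.146, limma adjusted p = 0.0876). The groups did not overlap, and wildtype embryo 3 was highest. Jag1, a Notch ligand, was at -0.25 (SE 0.0900, limma adjusted p = 0.275).

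**Figure D3:**
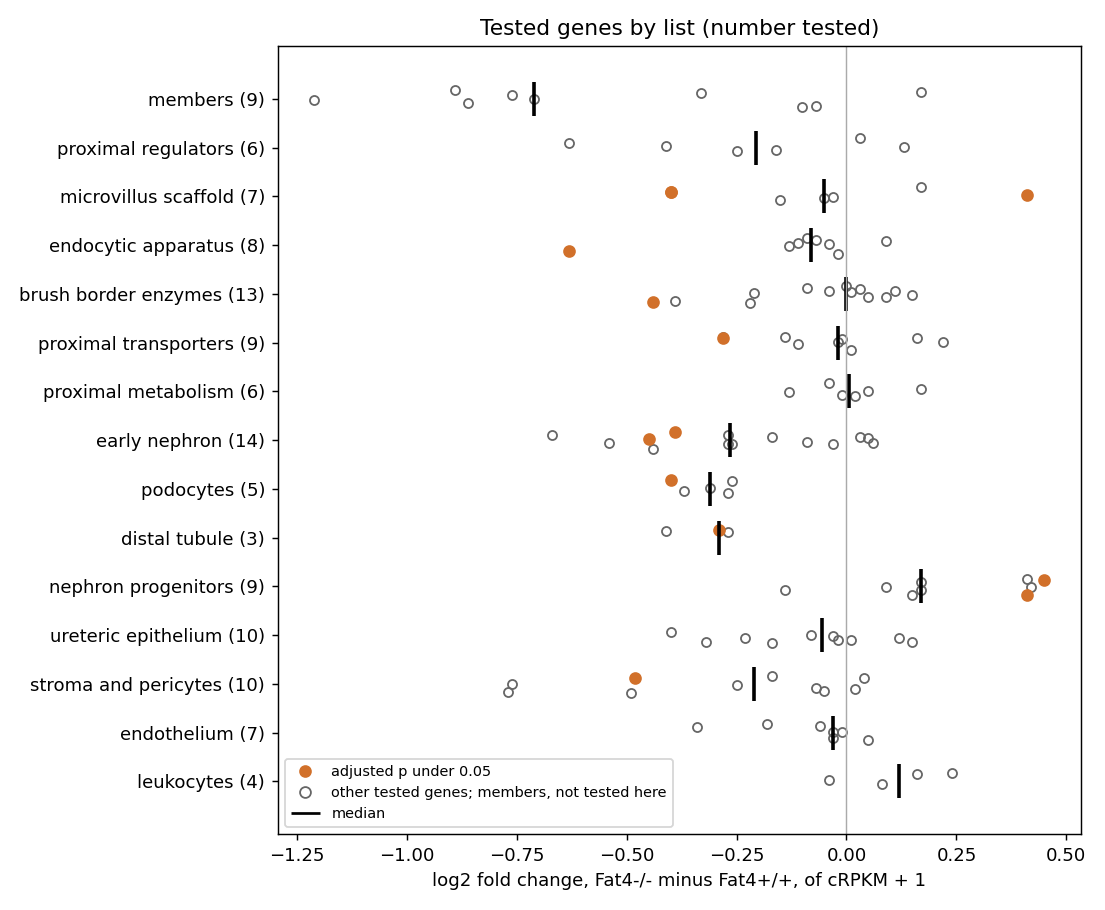
Log2 fold change of cRPKM + 1, mutant minus wildtype (horizontal axis), of every tested gene in each list (rows, number tested in brackets), with calls at an adjusted p under 0.05 filled in orange and the median as a line. Members span -1.21 to 0.17 and carry no test, the proximal lists centre between -0.21 and 0.01, and early nephron, podocyte and distal lists centre between -0.31 and -0.26.

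The remaining 60 proximal genes with any value were under 1 cRPKM on average. The mutant mean was lower in 50 of them (83.3%) and higher in 8, against 59.5% lower among all 6420 genes of that kind. In 26 of the 60 (43.3%) every mutant library was under every wildtype library, against 9.81% of the 6420. Every mutant library was above every wildtype library in none of the 60 and in only 187 of the 6420. A drop without overlap was also seen for 4 of 8 distal genes (50%) and 2 of 5 podocyte genes (40%) under 1 cRPKM. It was therefore not particular to proximal genes. Wildtype embryo 3 was the highest of the 6 libraries for 35 of the 60 genes, as against 21.1% of the 6420. It was the highest for each of the 26 proximal genes without overlap. Among the 49 tested proximal genes it was the highest for 20 (40.8%, against 20.2% of all tested genes). Without wildtype embryo 3, the count of genes with every mutant library under every wildtype library was 29 rather than 26 (48.3%, against 14.6%). With the 4 Y-expressing libraries alone it was 33 (55.0%, against 23.0%), both settings being chosen after seeing the data. Depth is unknown, and mutant libraries had fewer genes above 0 than wildtype libraries, the part of which was not tested.

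The following low genes were named after their values were seen. Tmem27, which encodes the amino acid transporter chaperone collectrin, had 1.20, 1.20 and 1.92 cRPKM in wildtype embryos 1, 2 and 3, while the mutants had 0.44, 0.45 and 0.76. Slc47a1, an exporter of organic cations, had 0.83, 0.76 and 1.28 cRPKM, while the mutants had 0.46, 0.35 and 0.55. Both genes were low in each mutant and highest in wildtype embryo 3, as Hnf4a was. Anks4b, part of the complex that links microvillus tips, had a mean of 0.653 ± 0.214 in wildtype and 0.120 ± 0.0361 cRPKM in mutant libraries (SD, n = 3). Slc2a2, the basolateral glucose carrier, had means of 0.270 ± 0.148 and 0.0333 ± 0.0115 cRPKM (SD, n = 3). Markers of the mature segment were near 0 throughout, with the phosphate carrier Slc34a1 at 0.02 to 0.11 cRPKM in wildtype and listed at 0 in each mutant library, and Kap listed at 0 in all 6.

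**Figure D4:**
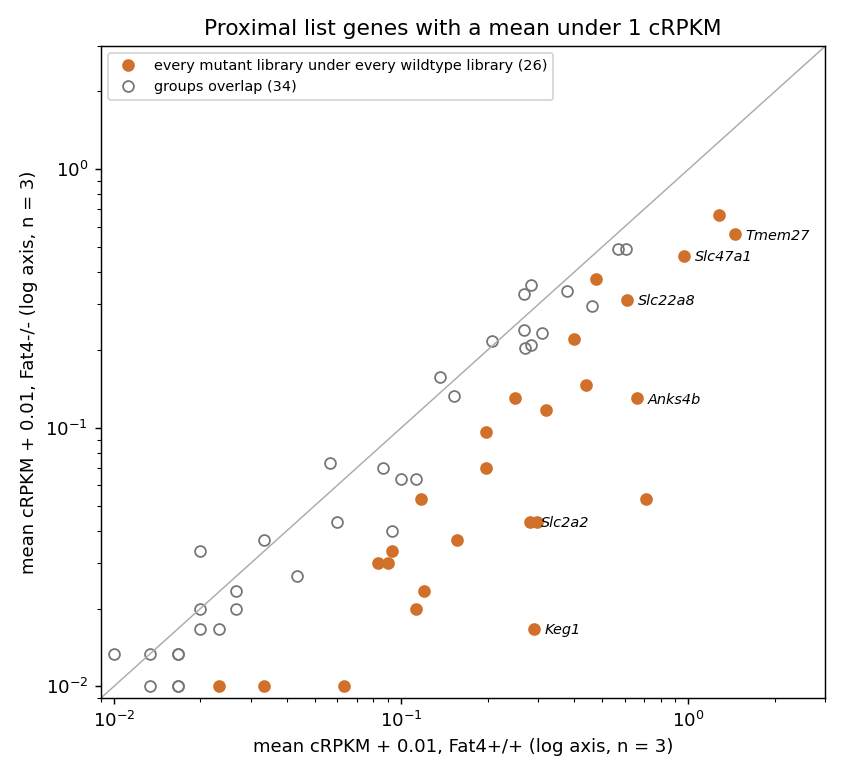
Mean cRPKM + 0.01 in Fat4-/- (vertical) against Fat4+/+ (horizontal) libraries, n = 3 each and both axes logarithmic, of the 60 proximal list genes under 1 cRPKM on average, with the line of equal levels. Filled points are the 26 genes whose mutant libraries all lie under the wildtype libraries, and Keg1, Slc2a2 and Anks4b are among those well below the line.

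Markers of other cells that make some of these proteins were read beside them. In the early nephron list 2 of 14 tested genes fell and none rose (limma, adjusted p under 0.05), with a median log2 fold change of -0.26. Its summed level was 330 to 411 cRPKM in wildtype and 307 to 348 in mutant libraries. Of podocyte genes, which belong to the other end of the same nephron and whose cells can make Mme and Enpep, 1 of 5 tested fell, Cldn5, with a median of -0.31. The podocyte list summed to 140 to 150 cRPKM in wildtype and 112 to 122 in mutant libraries, and its defining gene Nphs1 was at 0.08 to 0.35 and 0.00 to 0.01 cRPKM. Of distal genes 1 of 3 tested fell, Mecom, with a median of -0.29 and sums of 40.4 to 47.9 and 31.0 to 34.4 cRPKM. Nephron progenitor genes went the other way, with 2 of 9 called higher (Eya1 and Osr1), none lower, a median of 0.17 and sums of 396 to 434 and 457 to 511 cRPKM. At an unadjusted p under 0.05 in limma, 9 of 14 early nephron, 5 of 5 podocyte and 3 of 3 distal genes were lower. Of progenitor genes, 6 of 9 were higher. Over all 12315 tested genes, 981 were lower and 626 higher at that level. Every mutant library was under every wildtype library for 5 early nephron, 5 podocyte and 2 distal genes tested. This share was 11.0% over all tested genes and 24.5% over the 49 proximal ones. The part of these cell types in the drop of the 6 genes was not tested.

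Stroma and pericytes, where Enpep, Anpep and Mme can be expressed, had 1 of 10 tested genes called lower, Pdgfra, a median of -0.21, and sums of 245 to 282 in wildtype and 218 to 226 cRPKM in mutant libraries. At an unadjusted p under 0.05 in limma, 3 of these 10 were lower, against 981 lower and 626 higher of all 12315 tested genes. In ureteric epithelium none of 10 passed in limma, with 4 at an unadjusted p under 0.05 and sums of 241 to 282 and 236 to 245 cRPKM. In endothelium none of 7 passed, with 2 at an unadjusted p under 0.05 and sums of 137 to 146 and 128 to 140 cRPKM. Leukocyte markers were low, with none of 4 tested passing in limma, 1 at an unadjusted p under 0.05, and sums of 14.6 to 17.9 and 16.0 to 17.3 cRPKM. Here too the part in the members' values was not tested. The 7 called genes of these lists, Eya1, Osr1, Dkk1, Papss2, Cldn5, Mecom and Pdgfra, all lost their calls with the Y-linked covariate (limma adjusted p 0.179 to 0.671), with log2 fold changes of 0.43, 0.34, -0.57, -0.41, -0.44, -0.24 and -0.45. Eya1 and Pdgfra still passed with any single library left out, and each of the other 5 lost its call for at least 1 library left out. The T cell gene Cd3e, whose cells can carry Dpp4, was at 0.02 cRPKM or less in all 6 libraries.

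Liver and gut also express Hnf4a, and markers of both were read. Alb was at 0.02 to 0.07 cRPKM in wildtype and 0.02 to 0.30 in mutant libraries, and Afp at 0.15 to 0.24 and 0.13 to 0.51. The 10 liver markers summed to 5.72 to 6.90 cRPKM in wildtype and 6.07 to 7.06 in mutant libraries, and 2 were high enough to test, neither of which passed in limma (no unadjusted p under 0.05). These were Trf at 3.83 to 5.06 and Apoa2 at 0.97 to 1.41 cRPKM over the 6 libraries. Fgb was lower in every mutant library, at 0.14 to 0.27 cRPKM in wildtype and 0.04 to 0.10 in mutants. The intestinal factor Cdx2 and the sucrase gene Sis were listed at 0 in all 6 libraries. The 8 intestinal markers summed to 2.05 to 2.21 and 2.02 to 2.24 cRPKM, with Lgals4 alone at 1.60 to 1.83. The summed ranges of the genotypes overlapped for both organs.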

How the data were processed

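RNA from both kidneys of each of 6 embryos was sequenced as 1 library per embryo. The authors deposited 1 table of RPKM values in a corrected form (cRPKM), with reads trimmed per the file headers; Bowtie and mm9 come from the submitters' processing notes, and versions and the correction are not given in the sources used here. Of 22667 genes, 1114 hold no value. Columns were matched to samples by the header text in their descriptions.

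The test was limma 3.58.1 (R 4.3.3) with a mean-variance trend, 2-sided, on log2(cRPKM + 1), with no term but genotype, for 12315 genes that averaged 1 cRPKM or more, which Hnf4a, Lrp2 and Pdzk1 reached only through their wildtype values. P-values were adjusted by Benjamini-Hochberg over all of them. P-values measure the spread within 1 litter; an exact test of a single gene cannot go below p = 0.1. A gene name with several entries was read from the highest. The code was tested on simulated data.

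The members and lists were chosen with earlier results of these data known. Named genes were the members, up to 3 tested genes per list by smallest unadjusted p, the 10 genes most like Hnf4a by each measure, and others where stated; some of them are not reported here. One listed regulator and 1 distal gene were not matched by name. Gene positions came from GENCODE M21 by Ensembl identifier and promoters from RefSeq, both on GRCm38, not the mm9 of the values. Alternatives were other pseudocounts, filters and scalings, array weights, an embryo block, a Y-linked covariate, Y-expressing libraries alone and leaving out each library.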

Additional observations from a re-analysis of the deposited data

How the results depend on the processing

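The direction of all 9 members held under each of 15 alternatives, with log2 fold changes of -2.19 to -0.94 for Hnf4a, -1.59 to -0.62 for Pdzk1, -1.03 to -0.73 for Dpp4, -0.86 to -0.64 for Enpep, -0.95 to -0.61 for Ggt1, -0.58 to -0.23 for Lrp2, -0.09 to -0.05 for Anpep, -0.15 to -0.01 for Mme and 0.10 to 0.21 for Acy3. The members were picked on this contrast. Where the groups of a gene do not overlap, leaving out libraries cannot reverse its direction. Nothing is therefore read from the held directions. Counts of calls moved, and the cause was not tested. Over all genes 68 were higher and 108 lower. With no filter on low values (18735 genes) there were 10 and 22, with the Y-linked score as covariate 1 and 1, and with the Y-expressing libraries alone 1 and 3. Leaving out 1 library gave 7 to 53 higher and 17 to 87 lower. Of the 49 other proximal genes, 1 higher and 5 lower became 0 and 1 of 109 without a filter, 0 and 0 with the Y-linked covariate, 0 and 0 of 51 in Y-expressing libraries, 3 lower with quantile normalization, and 0 to 1 higher and 1 to 5 lower with 1 library left out. In the Y-expressing libraries 22 of the 49 (44.9%, against 28.2% of all tested) had each mutant value under each wildtype value, rather than 12 in all 6; these settings were chosen after seeing the data. The embryo number as a block (replicate block) gave 109 higher and 164 lower genes. Deviations of same-numbered embryos correlated at 0.0985, 0.205 and 0.277, and not every library correlated best with its own number, so the numbers were not taken as pairs. The median likeness to Hnf4a over the other 8 members, 0.87, ran from 0.34 (without wildtype embryo 3) to 0.93 with 1 library left out. With promoter windows cut to the 250 bases before the start, 1 window rather than 2 held a match. Depth is unknown, so the counting error of genes under 1 cRPKM could not be given.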
